A study of Mus musculus with 46 samples.

Results

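The levels of 8 genes that mark the adrenal gland and the sympathetic nervous system were followed in fetal mouse gonads, in every sequenced library. The genes were chosen by name, before any filter on counts, as the rows Dbh, Th, Phox2a, Chga, Hand2, Mc2r, Cyp21a1 and Cyp11b1, which are 8 of the 33331 gene rows of the deposited tables. Earlier results of these data were known when they were chosen. Poly(A) RNA came from whole pairs of E12.5 gonads, from 24 XX and 22 XY libraries, and all mutations lie in Enh13, a remote enhancer of the testis-determining gene Sox9. Wild type (WT) and the heterozygous groups of the 1bp-ins and of the 3bp-del allele had 3 libraries in each sex, and their homozygous groups had 5. The third homozygous genotype, 3bp-12bp-del, had 5 libraries in XX and 3 in XY. WT carries no Enh13 mutation, no other allele or treatment is given, and what 3bp-12bp-del stands for is not explained in the labels. Nothing says that replicates of a group are separate animals, so the p-values measure only the spread between these samples. In bulk RNA of a whole organ, fewer cells of a type and less RNA per cell cannot be told apart.

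The adrenal gland lies beside the gonad in the embryo. Its cortex arises from the same steroidogenic primordium as the gonad and shares Nr5a1, and its medulla is filled by neural crest cells that become catecholamine-making chromaffin cells, close relatives of sympathetic neurons. The fetal gonad itself can express genes usually read as adrenal, in cells that respond to adrenocorticotropic hormone (ACTH), so an adrenal marker in a gonad library may come from either organ.

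Each library held 29909111 to 46150400 estimated counts, and 3 counts, taken as the limit that a count of 0 allows, were worth 0.0662 to 0.102 CPM (counts per library, scaled by depth). That limit covers counting error only. Levels are given as TPM, transcript numbers scaled for gene length and depth, which can be compared between genes. Sox9 and Foxl2 were read as a check of the labels. Sox9 lay at 3.19 to 4.95 TPM in XX WT and heterozygotes, at 45.74 to 99.17 TPM in XX homozygotes and at 36.65 TPM or more in the XY libraries. Foxl2, a pregranulosa gene, was lower in every XX homozygote (1.93 to 11.44 TPM) than in any XX WT or heterozygote (21.11 to 30.22 TPM). There were 6 libraries that stood apart before any comparison, with summed TPM of Dbh, Th, Phox2a and Chga above 25 against a median of 2.65 over all 46. They were XX WT replicate 1 (153.81), XY 3bp-del heterozygote replicate 1 (46.71), XX 1bp-ins heterozygote replicate 2 (41.71) and XX 1bp-ins homozygote replicates 3 (31.22), 1 (29.51) and 4 (25.69). Another 2 stood apart by kidney-type markers of the neighbouring mesonephros, a summed 149.04 TPM in XY WT replicate 3 and 82.13 TPM in XX 3bp-del homozygote replicate 4. Hand2 is given with and without these 8 libraries. For the 4 genes that set the first 6 apart, only single libraries were left out, since leaving out all 6 would select on the measure itself.

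The RefSeq promoters (build GRCm38.p6) of 5 of the 8 members were matched by symbol. Of the 4 genes that were high in the same libraries, the 3 whose windows hold the letters described here are shown. Each is the 250 bases before the transcription start, 5′ to 3′ on the gene's strand. Capitals mark TAAT, the core letters bound by homeodomain proteins such as Phox2a, and TGACG, the core of a cyclic AMP response element, on either strand (ATTA and CGTCA). The regions are chr2:27165257-27165506 on the plus strand for Dbh, chr7:142899996-142900245 on the minus strand for Th and chr12:102554691-102554940 on the plus strand for Chga.
Dbh: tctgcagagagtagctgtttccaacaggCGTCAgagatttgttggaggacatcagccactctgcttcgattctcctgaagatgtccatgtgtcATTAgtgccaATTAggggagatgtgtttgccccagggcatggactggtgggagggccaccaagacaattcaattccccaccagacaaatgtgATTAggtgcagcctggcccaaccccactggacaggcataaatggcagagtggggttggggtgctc
Th: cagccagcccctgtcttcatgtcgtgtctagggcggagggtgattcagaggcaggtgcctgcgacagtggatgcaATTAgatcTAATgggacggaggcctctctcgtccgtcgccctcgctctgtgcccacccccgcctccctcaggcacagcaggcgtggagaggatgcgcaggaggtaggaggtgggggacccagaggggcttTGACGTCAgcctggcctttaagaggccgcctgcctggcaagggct
Chga: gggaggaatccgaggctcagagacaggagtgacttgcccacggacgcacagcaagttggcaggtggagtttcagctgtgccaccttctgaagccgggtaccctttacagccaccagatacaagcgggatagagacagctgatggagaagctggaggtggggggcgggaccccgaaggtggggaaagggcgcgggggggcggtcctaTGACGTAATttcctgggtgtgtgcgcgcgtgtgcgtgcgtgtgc
The Dbh window held TAAT or ATTA at 3 places, starting 157, 147 and 65 bases before the start, and CGTCA once. The Th window held the letters of TGACG on both strands as overlapping matches 45 and 42 bases before the start, and TAAT or ATTA at 2 places. In the Chga window TGACG began 44 bases before the start and ran into TAAT. Over 32851 promoter windows of 250 bases, 54.9% held TAAT or ATTA and 17.8% held TGACG or CGTCA, so TAAT is common and a match is only a description. The Hand2 window held 5 and 1 of them, and in the Phox2a window neither set of letters occurred.

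The first 4 members belong to catecholamine cells. Dbh encodes dopamine beta-hydroxylase, which turns dopamine into noradrenaline. Its level ran from 0 to 54.99 TPM over the 46 libraries with a median of 0.535, and 7 libraries had 200 counts or more. XX WT replicates had 54.99, 0.51 and 0.33 TPM, XX 1bp-ins heterozygotes 0.07, 13.05 and 1.02 TPM, and XX 3bp-del heterozygotes 0.13, 4.17 and 1.2 TPM. In each of these groups 1 replicate stood above the others. The 5 XX 1bp-ins homozygotes split into 9.59, 9.6 and 8.88 TPM in replicates 1, 3 and 4 and 0.02 TPM in replicates 2 and 5. XX 3bp-del homozygotes had 0.97, 2.23, 0.09, 2.34 and 2.36 TPM, and XX 3bp-12bp-del homozygotes 0.56, 0.78, 0.76, 1.77 and 0.21 TPM. No library of these 2 groups rose above 2.36 TPM, though levels within the 3bp-del homozygotes were also uneven. Among XY libraries, only 3bp-del heterozygote replicate 1 was high, at 18.58 TPM beside 0.06 and 1.13 TPM in its group. XY WT had 0.25, 1.09 and 0.48 TPM, XY 1bp-ins heterozygotes 0.03, 0.06 and 0.58 TPM, and the 13 XY homozygotes 0 to 2.2 TPM, with 0 counts in 3bp-12bp-del replicate 3. The groups overlapped in all of these comparisons.

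Th encodes tyrosine hydroxylase, the rate-limiting enzyme of catecholamine synthesis. It was highest in the same libraries, at 36.65 TPM in XX WT replicate 1, 11.29 TPM in XY 3bp-del heterozygote replicate 1 and 8.52 TPM in XX 1bp-ins heterozygote replicate 2. The XX 1bp-ins homozygotes had 6.81, 5.83 and 6.98 TPM in replicates 1, 3 and 4, beside 0.13 and 0.23 TPM in replicates 2 and 5. The median over all libraries was 0.325 TPM. Phox2a, a homeodomain factor needed for noradrenergic identity, followed at 21.38, 5.51 and 4.45 TPM in the 3 richest libraries against a median of 0.545 TPM. Chga encodes chromogranin A, a protein of secretory granules. It had 40.79, 11.33 and 15.69 TPM there against a median of 1.375 TPM, and unlike the other 3 it was never below 0.34 TPM or 13 counts. In both genes the split of the XX 1bp-ins homozygotes was the same as for Dbh and Th: Phox2a had 6.11, 4.56 and 2.4 TPM against 0.41 and 0.28 TPM, and Chga 7, 11.23 and 7.43 TPM against 1.09 and 1.03 TPM. The high libraries came from 4 of the 12 groups, WT among them.

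**Figure D1:**
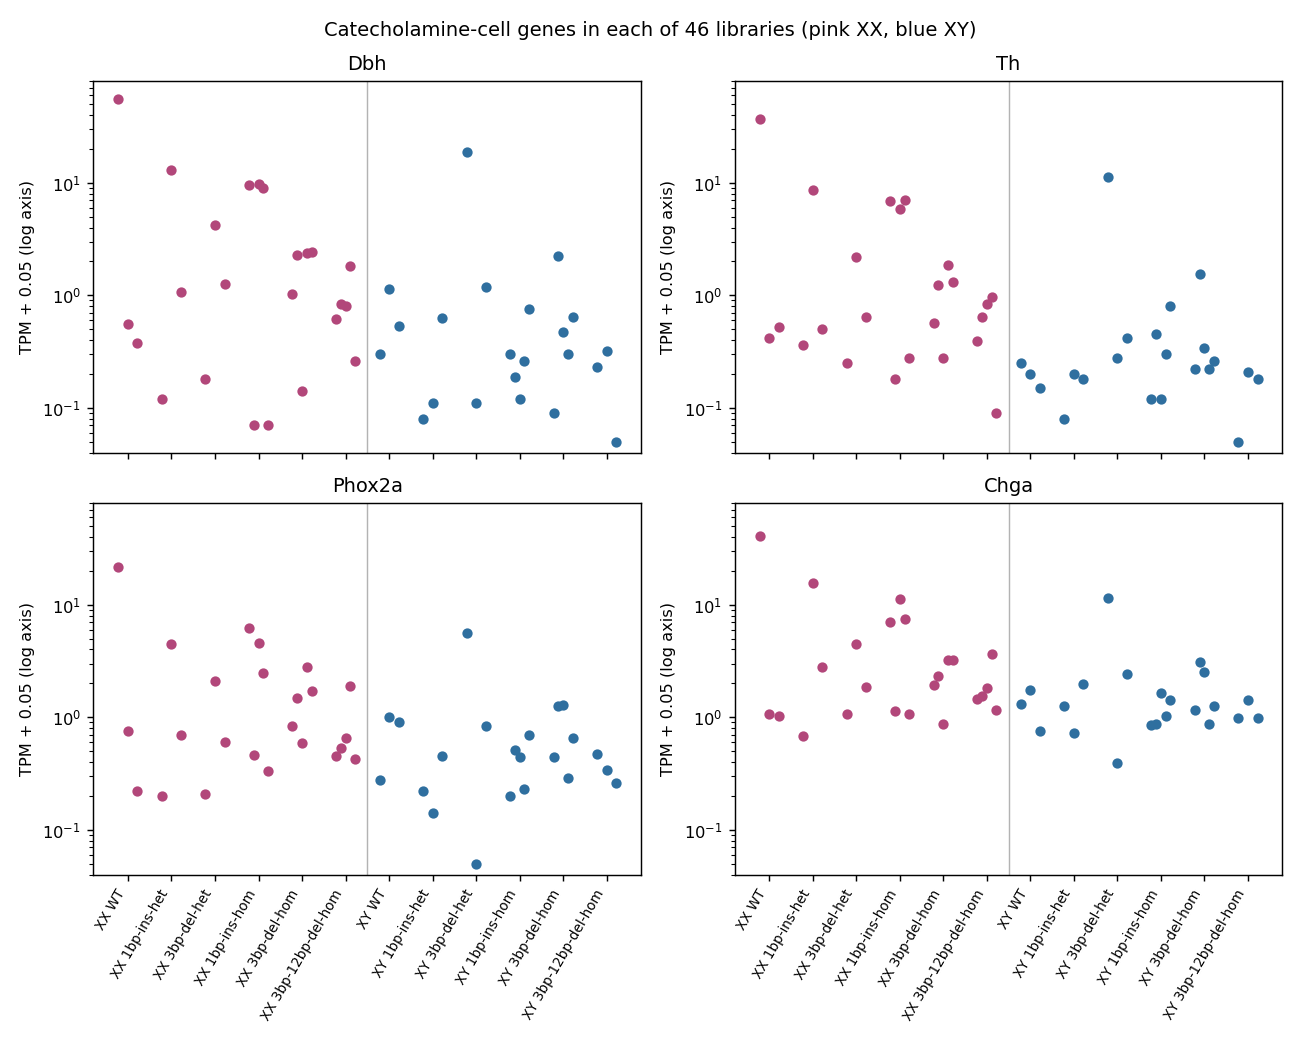
Level of Dbh, Th, Phox2a and Chga in each library (TPM + 0.05, log axis), by group, with XX in pink and XY in blue; each point is 1 library. XX WT replicate 1 is the highest point in all 4 panels, and the XX 1bp-ins homozygotes fall into 3 high and 2 low libraries.

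The 4 genes varied less against each other than between libraries where they were well counted. In the 7 libraries with 200 or more Dbh counts, Th stood at 0.516 to 0.786 TPM per TPM of Dbh (median 0.653), while Dbh itself ranged from 4.17 to 54.99 TPM. Phox2a stood at 0.27 to 0.637 and Chga at 0.61 to 1.202 TPM per TPM of Dbh. After the group means were removed from log2 CPM, the 6 pairs among the 4 genes correlated across 46 libraries with Pearson's r of 0.871 to 0.942 and Spearman's rho of 0.826 to 0.895 (each permutation p 1e-05, the smallest that 100000 permutations within groups can give; adjusted p 4.67e-05 over 28 pairs). Without the 2 libraries farthest from the median, r was 0.822 to 0.923. Hand2 correlated with the 4 less closely, with r from 0.599 (Dbh) to 0.709 (Phox2a). No correlation of Mc2r with the 4 was called, with r from -0.14 to -0.05 (permutation p 0.535 to 0.797).

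Other chromaffin and sympathetic genes were read from a list of 20. In XX WT replicate 1 its summed level was 177.9 TPM, the highest of all libraries, with none of the 20 at 0. Chgb, which encodes a second granule protein, stood at 48.32 TPM there against a median of 0.55 over all libraries. Insm1, an early factor of neuroendocrine cells, stood at 17.96 TPM against a median of 0.435 TPM. Slc6a2, the noradrenaline transporter of mature sympathetic neurons, was at 0.03 TPM in XX WT replicate 1, close to its median of 0.025 TPM. The same library ranked 3rd in mesonephros markers (37.37 TPM), 46th and so last in steroidogenic genes (244.78 TPM) and 42nd in adrenal cortex genes (39.46 TPM). The last 2 sums hold genes that the gonad makes itself. Nr5a1 stood at 109.82 TPM (median 202.055) and lay at 109.82 to 146.23 TPM in all XX WT and heterozygotes. Single genes went both ways, with Cyp11a1 at 6.59 TPM (median 3.655) and Star at 6.36 TPM (median 8.47). Cyp21a1 and Cyp11b1, outside these lists, had 22 and 9 counts there, so the ranks do not show that cortex genes were low. XY 3bp-del heterozygote replicate 1 ranked 46th in mesonephros markers (4.2 TPM) and XX 1bp-ins heterozygote replicate 2 ranked 14th (16.12 TPM). High catecholamine genes were thus found with and without mesonephros markers. The second-highest sum of the list, 84.84 TPM in XY 3bp-del homozygote replicate 1, was mostly Hand1 (59.18 TPM), a factor also made outside the nervous system, beside Dbh at 0.04 TPM and Chgb at 0.22 TPM. The part of carried-over tissue in these levels was not tested.

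Pnmt makes adrenaline from noradrenaline and is the textbook marker of the adrenaline-making chromaffin cell, yet its pattern was a different one. It lay at 0.27 to 1.09 TPM (median 0.46) in XX WT and heterozygotes, with 0.43 TPM in XX WT replicate 1. It lay at 1.27 to 6.51 TPM in XX homozygotes, at 4.07 to 11.69 TPM in XY WT and heterozygotes and at 3.74 to 11.54 TPM in XY homozygotes. None of the 9 XX WT and heterozygous libraries overlapped with any other class, and 1.72% of 17033 genes lay below all others in these 9 by CPM. Averaged over genotypes, Pnmt was higher in XY than in XX by 2.54 ± 0.18 (log2 fold change ± SE, adjusted p 2.25e-15 by edgeR's quasi-likelihood test), and higher in XX homozygotes than in XX WT and heterozygotes by 2.87 ± 0.27 (adjusted p 8.79e-11), or 1.87 with limma on log2(TPM + 0.5).

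The first comparison asks whether the sexes differed in the 8 genes, averaging the 6 genotypes with equal weight in 1 fit over all 46 libraries. All members but Cyp11b1 passed the filter on low counts. Of these 7 edgeR called 5 at an adjusted p under 0.05, with 4 lower and 1 higher in XY, where 58.7% of the 17033 tested genes were called, 28.9% lower and 29.8% higher. The median log2 fold change was -1.36 over the members and -0.00 over all tested genes. In XY Th fell by 3.00 ± 0.67 on the log2 scale (edgeR adjusted p 2.40e-04), a fitted value that averages log2 changes over the 6 genotypes. Mean CPM of Th, a different measure, was 3.82 in XX and 0.923 in XY, which is a smaller change than the fitted one. Dbh had a log2 fold change of -2.54 ± 0.68 (adjusted p 0.0017), Phox2a of -1.68 ± 0.48 (adjusted p 0.00313) and Chga of -1.36 ± 0.40 (adjusted p 0.00336). The size rested in part on 1 library. Without XX WT replicate 1 the values were -2.18 for Th (adjusted p 0.00276), -1.63 for Dbh (0.0286), -1.01 for Phox2a (0.0469) and -0.73 for Chga (0.0633), so that the call of Chga was lost. Without XY 3bp-del heterozygote replicate 1 they grew to -3.82 for Th and -3.13 for Dbh. With limma on log2(TPM + 0.5) they fell to -1.09 for Th, -1.11 for Dbh and -0.76 for Phox2a, and Chga lost its call (-0.79, adjusted p 0.0502).

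Within single genotypes edgeR called 0 of these 4 genes between the sexes, where 9.94% to 39.2% of all tested genes were called. At an unadjusted p under 0.05 all 4 were lower in XY among 1bp-ins homozygotes, Dbh and Th in WT, Th in 1bp-ins heterozygotes and Dbh in 3bp-12bp-del homozygotes. Counting Mc2r with them, DESeq2 called 5 members in 1bp-ins homozygotes, 3 in 1bp-ins heterozygotes and 2 in 3bp-12bp-del homozygotes, beside 15.6%, 40.2% and 16.0% of all genes, and in the other 3 genotypes, as limma did in all 6, it called 1. In 3bp-del heterozygotes, whose XY replicate 1 was rich in these genes, the log2 values had the opposite sign, 2.10 ± 1.88 for Th (edgeR adjusted p 0.465) and 1.85 ± 1.84 for Dbh (0.511), neither called. The largest fold change was in WT, where Th had 36.65, 0.37 and 0.47 TPM in XX and 0.2, 0.15 and 0.1 TPM in XY, a log2 fold change of -6.36 ± 2.09 with an adjusted p of 0.108. It was -1.41 without XX WT replicate 1 (adjusted p 0.257) and -2.28 with limma (adjusted p 0.346). The Th libraries of the WT sexes did not overlap, nor did those of 1bp-ins heterozygotes (0.31, 8.52 and 0.45 TPM in XX, 0.03, 0.15 and 0.13 TPM in XY), and 16.6% and 25.3% of 17033 genes had XX above XY in this way. For Dbh the WT libraries overlapped (-4.81 ± 1.98, adjusted p 0.179). Without XX WT replicate 1 the Dbh value turned to 0.65. The summed level of the 4 genes exceeded 10 TPM in 7 of 24 XX and 1 of 22 XY libraries.

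Among the 20 chromaffin and sympathetic genes 18 were tested between the sexes, 2 were higher and 7 lower in XY, with a median log2 fold change of -0.69. Of all 17033 genes tested in this fit 29.8% were higher and 28.9% lower, a share to set beside each list count that follows. Chgb fell by 2.38 ± 0.61 on the log2 scale (adjusted p 9.69e-04) and Insm1 by 2.34 ± 0.45 (adjusted p 2.53e-05). Without XX WT replicate 1 these became -1.60 and -1.58, still called, and with limma on log2(TPM + 0.5) -1.12 and -1.11. Pnmt and Slc6a2 were the 2 that were higher. Of 9 neural crest and Schwann precursor genes 4 were higher and 1 lower in XY. S100b, a glial calcium-binding protein, had a log2 fold change of 2.05 ± 0.30 (adjusted p 1.79e-07, 1.13 with limma) and Erbb3, the neuregulin receptor of Schwann precursors, of 1.59 ± 0.14 (adjusted p 1.91e-12). Several of these are also expressed outside the crest, so their sum says little about crest cells alone. Of 6 mesonephros genes 4 were lower and 1 higher in XY, with a median of -1.21. The part of the mesonephros in the sex difference of the catecholamine genes was not tested.

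**Figure D2:**
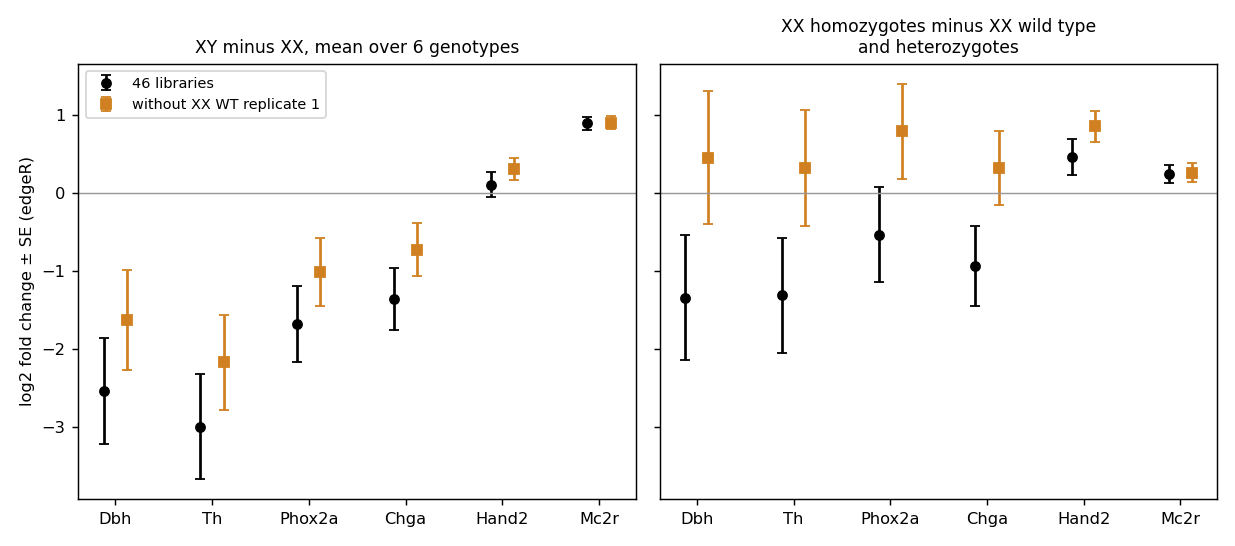
Log2 fold changes with standard errors (edgeR) of 6 members, in black with all 46 libraries and in orange without XX WT replicate 1. The 4 catecholamine genes lie below 0 for XY minus XX in both fits, and for XX homozygotes minus XX WT and heterozygotes they cross from below to above 0 when that library is left out, while Mc2r hardly moves.

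The next comparison asks whether homozygotes, in which Sox9 was high also in XX, differed from WT and heterozygotes. Over the 15 XX homozygotes and 9 XX WT and heterozygotes, 0 of 7 tested members were called by edgeR, where 46% of all genes were (24.6% higher, 21.4% lower). By unadjusted p under 0.05 there was 1 member (Mc2r), and DESeq2 and limma called 0. The values of the 4 catecholamine genes were negative, -1.35 ± 0.80 for Dbh (adjusted p 0.173), -1.31 ± 0.73 for Th (0.144), -0.54 ± 0.61 for Phox2a (0.498) and -0.94 ± 0.51 for Chga (0.137), all by edgeR. Each turned positive without XX WT replicate 1, to 0.45, 0.32, 0.79 and 0.32, and none was called there either. Between the 13 XY homozygotes and the 9 XY WT and heterozygotes, edgeR called 0 of 7 against 6.37% of all genes, 0 had an unadjusted p under 0.05, and DESeq2 and limma called 0. The difference between the XX and the XY effect was tested as an interaction, with 0 of 7 called by edgeR against 19.5% of all genes, 0 at an unadjusted p under 0.05, and 0 by DESeq2 and limma.

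Single mutant groups were also set against WT of their sex, 5 comparisons in XX and 5 in XY that share the 3 WT libraries of that sex. In fits of each pair of groups edgeR called 0 members in any of the 10, and DESeq2 and limma called 0 as well. At an unadjusted p under 0.05 there were 2 in XX 3bp-12bp-del homozygotes (Dbh and Th), 1 in XY 1bp-ins heterozygotes (Phox2a) and 0 in the other 8. Of all tested genes, 0% were called in XX 1bp-ins heterozygotes, 32.3% in 1bp-ins homozygotes, 10.9% in 3bp-del heterozygotes, 44.8% in 3bp-del homozygotes and 25.6% in 3bp-12bp-del homozygotes. In XY the share was 0% in 4 of the groups and 0.013% in 3bp-12bp-del homozygotes. The absence of calls depended on the fit. With all 12 groups in 1 fit, edgeR called 4 members in XX 3bp-12bp-del and 2 in XX 3bp-del homozygotes. The shares of all genes there were 21.1% and 39.5%. XX WT in that fit includes replicate 1, with Dbh at 54.99 TPM beside 0.51 and 0.33 TPM in the other replicates. The fit was not repeated for these comparisons without that library, so these calls were not shown to be effects of the mutations.

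In the list of 20 chromaffin and sympathetic genes, 18 were tested in XX homozygotes, with 1 higher and 3 lower. Of all tested genes 24.6% were higher and 21.4% lower there. Pnmt was the 1 that was higher. Slc18a2 and Slc18a1, which load monoamines into vesicles, had log2 fold changes of -0.88 ± 0.31 (adjusted p 0.0196) and -0.62 ± 0.23 (adjusted p 0.0258). Without XX WT replicate 1 these were -0.20 (adjusted p 0.576) and -0.23 (adjusted p 0.39), and without XX 1bp-ins heterozygote replicate 2 -0.71 (0.0765) and -0.57 (0.0564). The call of Slc18a2 was also lost without XX 3bp-del heterozygote replicate 2 (-0.64, adjusted p 0.102).

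Hand2 encodes a basic helix-loop-helix factor of sympathetic and chromaffin precursors that is also expressed in mesenchyme outside the nervous system. It was found in every library, at 3.27 to 29.51 TPM with a median of 7.885. The file also lists Hand2os1, transcribed from the opposite strand beside it, and as the handling of strand is not given, reads of the 2 cannot be told apart with certainty. XX WT had 29.51, 5.75 and 6.04 TPM, XX 1bp-ins heterozygotes 4.41, 10.49 and 4.17 TPM, and XX 3bp-del heterozygotes 3.27, 4.21 and 5.71 TPM. The high replicate of the first 2 groups was the one high in Dbh. XX homozygotes had 10.72, 7.07, 12.43, 9.74 and 7.86 TPM (1bp-ins), 7.36, 8.38, 7.5, 15.45 and 8.29 TPM (3bp-del) and 7.91, 7.4, 6.81, 11.83 and 11.19 TPM (3bp-12bp-del). The XX classes overlapped, at 6.81 to 15.45 TPM in the 15 homozygotes and 3.27 to 29.51 TPM in the 9 WT and heterozygous libraries.

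XY WT had 6.35, 8.98 and 24.73 TPM, the last in the library richest in mesonephros markers. XY heterozygotes had 5.99, 6.66 and 7.44 TPM (1bp-ins) and 12.62, 3.88 and 5.35 TPM (3bp-del), and the 13 XY homozygotes ran from 6.74 to 12.47 TPM with a median of 8.38. The classes overlapped in XY.

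With all 46 libraries the Hand2 difference between XX homozygotes and XX WT and heterozygotes was 0.46 ± 0.23 on the log2 scale and was not called (edgeR adjusted p 0.0983). Without XX WT replicate 1 it was 0.86 ± 0.20 (adjusted p 6.70e-04), and without XX 1bp-ins heterozygote replicate 2 it was 0.62 (adjusted p 0.0368). Leaving out all 8 libraries richest in sympathetic or mesonephros markers, a choice made after seeing the data, gave 0.84 ± 0.12 (adjusted p 1.88e-06), where 43.7% of all genes were called. That choice is not independent of Hand2, which correlated with the genes behind it, and the 8 include the 2 libraries highest in Hand2 among the WT and heterozygotes of each sex. In XY the same step moved the homozygote difference from 0.08 ± 0.24 (adjusted p 0.87) to 0.51 ± 0.12 (adjusted p 0.013), with the same limit, where 3.23% of all genes were called. The 2 effects were not shown to differ, with an interaction of 0.38 ± 0.33 (adjusted p 0.469), though it reached 0.77 (adjusted p 0.0438) without XX WT replicate 1. Between the sexes Hand2 differed by 0.11 ± 0.16 (XY over XX, adjusted p 0.603), and by 0.27 ± 0.08 (adjusted p 0.00623) without the 8 libraries, where 56.7% of all genes were called. The Hand2 calls in XX and XY therefore depended on which libraries were kept.

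Against XX WT alone each homozygous group gave a negative Hand2 value, -0.29 ± 0.53 for 1bp-ins, -0.32 ± 0.60 for 3bp-del and -0.51 ± 0.58 for 3bp-12bp-del, none called (edgeR adjusted p 0.706, 0.705 and 0.561). All 3 turned positive without XX WT replicate 1, to 0.92, 0.89 and 0.71 (adjusted p 0.0185, 0.048 and 0.0726), and without the 8 libraries to 0.57, 0.69 and 0.71 (0.075, 2.82e-04 and 0.0726). Without the 8 libraries 9.64%, 48.3% and 19.4% of all tested genes were called. These comparisons share the same WT libraries. Between WT sexes Hand2 differed by -0.04 ± 0.73 (adjusted p 0.979). It differed by 0.58 (adjusted p 0.0271) without XX WT replicate 1 and XY WT replicate 3, the WT libraries among the 8. In that fit 43.4% of all tested genes were called, and fewer than 3 libraries per sex remained. The libraries left out were the WT libraries highest in Hand2 of their sex.

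**Figure D3:**
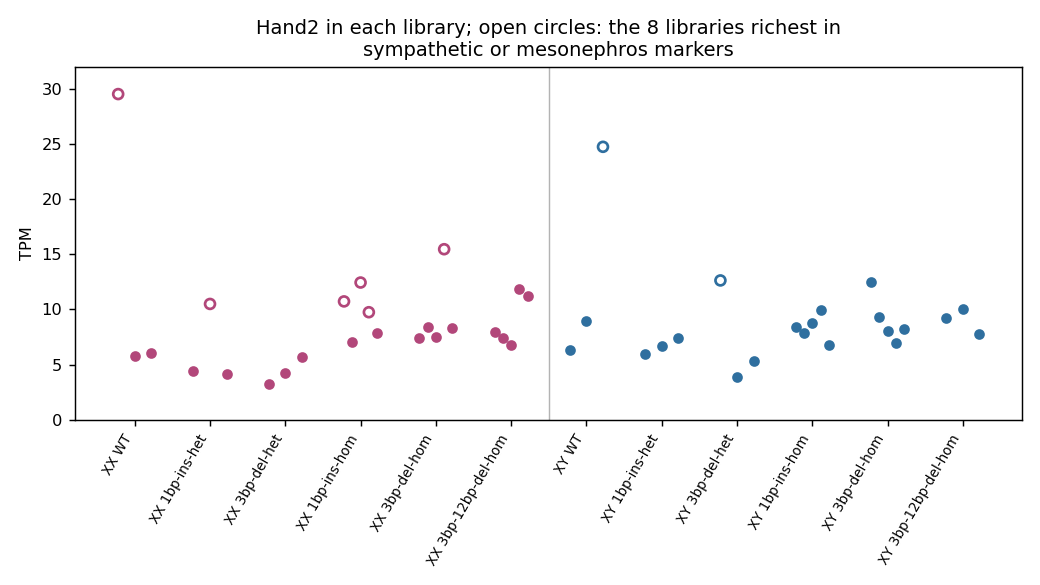
Hand2 level (TPM) in each library by group, XX in pink and XY in blue. Open circles are the 8 libraries richest in sympathetic or mesonephros markers. The open circles include the 2 highest libraries among the WT and heterozygotes of each sex, such as 29.51 TPM in XX WT and 24.73 TPM in XY WT.

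Mc2r encodes the ACTH receptor, the usual marker of the adrenal cortex. It was present in all 46 libraries, at 66 to 243 counts, and its level followed sex. XX WT had 2.87, 2.76 and 2.24 TPM and XY WT 4.92, 4.86 and 5.31 TPM. XX 1bp-ins heterozygotes had 2.2, 2.28 and 3.32 TPM against 5.51, 4.22 and 4.21 TPM in XY. XX 3bp-del heterozygotes had 1.85, 2.19 and 3.08 TPM against 3.48, 6.25 and 5.66 TPM in XY. In all 3 genotypes the sexes did not overlap. XX 1bp-ins homozygotes had 2.3, 2.39, 2.88, 3.29 and 3.01 TPM against 5.11, 3.78, 3.75, 4.65 and 5.12 TPM in XY. XX 3bp-del homozygotes had 2.15, 3.52, 2.98, 2.33 and 2.82 TPM against 3.87, 4.7, 4.96, 3.84 and 4.78 TPM in XY. XX 3bp-12bp-del homozygotes had 2.44, 2.43, 2.99, 3.63 and 2.79 TPM against 5.15, 4.64 and 6.06 TPM in XY. The sexes did not overlap among the homozygotes either, although their Sox9 levels did. Higher Mc2r in XY without overlap in every genotype was shared with 1.2% of 17033 genes by CPM.

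In order of mean level the 6 XX groups came first, from 2.37 ± 0.64 TPM (SD, n = 3) in 3bp-del heterozygotes through 2.60 ± 0.62 in 1bp-ins heterozygotes, 2.62 ± 0.34 in WT, 2.76 ± 0.54 in 3bp-del homozygotes and 2.77 ± 0.42 in 1bp-ins homozygotes to 2.86 ± 0.49 in 3bp-12bp-del homozygotes. The XY groups followed, from 4.43 ± 0.53 TPM (SD, n = 5) in 3bp-del homozygotes, 4.48 ± 0.68 in 1bp-ins homozygotes, 4.65 ± 0.75 in 1bp-ins heterozygotes, 5.03 ± 0.24 in WT and 5.13 ± 1.46 in 3bp-del heterozygotes to 5.28 ± 0.72 in 3bp-12bp-del homozygotes. Neighbours within a sex differed by less than the larger of their SDs, and the step between the XX and the XY groups was larger than both SDs beside it.

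Averaged over genotypes Mc2r was higher in XY by 0.89 ± 0.08 on the log2 scale (edgeR adjusted p 5.84e-12), and by at least 0.85 in every fit that left out 1 library. By genotype its log2 fold change was 1.03 in WT (edgeR adjusted p 0.0213), 0.89 in 1bp-ins heterozygotes (0.0121), 0.74 in 1bp-ins homozygotes (0.0207), 1.13 in 3bp-del heterozygotes (0.0176), 0.63 in 3bp-del homozygotes (0.00903) and 0.89 in 3bp-12bp-del homozygotes (0.0175). It was the only member called in each of these 6 comparisons, where 11%, 39.2%, 9.94%, 29.6%, 31.8% and 10.4% of all tested genes were called. With so few libraries the calls were fragile. The WT call was lost without any 1 of the 6 libraries except XY replicate 3 (adjusted p up to 0.0963) while the fold change stayed at 0.95 to 1.10. The other losses were without XY 1bp-ins heterozygote replicate 1 (adjusted p 0.0553), XX 1bp-ins homozygote replicates 1 or 2 or XY 1bp-ins homozygote replicates 1 or 5 (0.0509 to 0.0564), XX 3bp-del heterozygote replicates 1 or 2 or XY 3bp-del heterozygote replicate 2 (0.0606 to 0.0629), and XY 3bp-12bp-del homozygote replicate 3 (0.0755). XX homozygotes had 0.25 ± 0.12 more Mc2r than XX WT and heterozygotes, not called (adjusted p 0.0811). The call appeared without XX 1bp-ins heterozygote replicate 3 or XX 3bp-del heterozygote replicate 3 (0.30 each, adjusted p 0.0411 and 0.041). XY homozygotes differed by -0.02 ± 0.12 (adjusted p 0.944) and the interaction was 0.27 ± 0.17 (adjusted p 0.278).

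**Figure D4:**
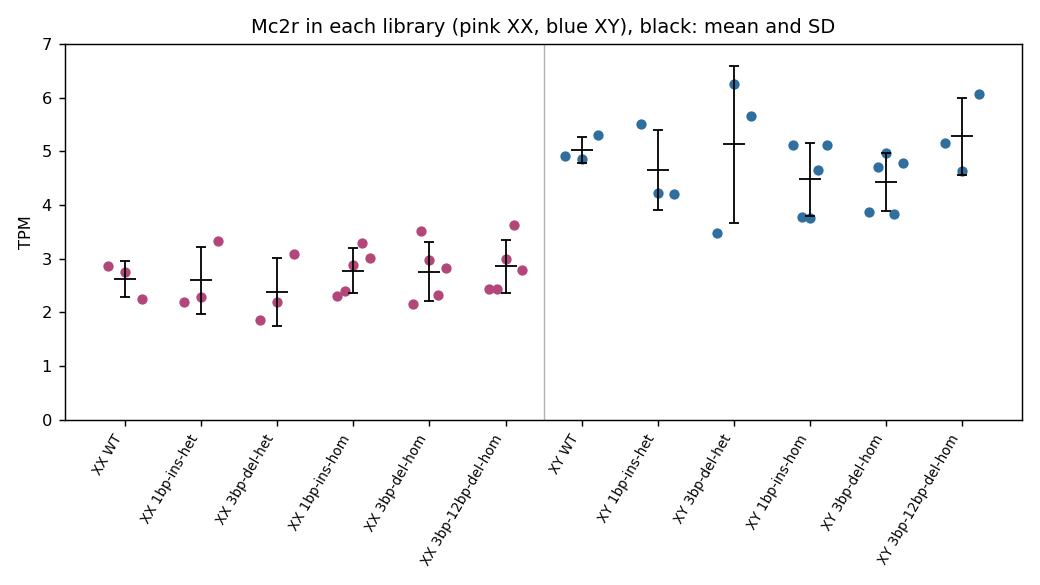
Mc2r level (TPM) in each library by group, XX in pink and XY in blue, with the group mean and SD in black. XX libraries lie at 1.85 to 3.63 TPM and XY libraries at 3.48 to 6.25 TPM, and no XX group overlaps with the XY group of its genotype.

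Mc2r did not follow the catecholamine genes into the 6 rich libraries. In XX WT replicate 1 it stood at 2.87 TPM beside 2.76 and 2.24 TPM in the other WT replicates, and in XY 3bp-del heterozygote replicate 1 it was the lowest of the XY libraries at 3.48 TPM. Mrap, the partner that carries the receptor to the cell surface, lay at 0.13 to 3.03 TPM over all libraries. In XX homozygotes it was higher by 0.67 ± 0.25 on the log2 scale (edgeR adjusted p 0.0241). That call was lost with limma (0.37, adjusted p 0.0552), with the replicate number as a block (0.64, adjusted p 0.058), and without any 1 of 4 libraries, XX 1bp-ins heterozygote replicate 3, XX 1bp-ins homozygote replicate 5, XX 3bp-del heterozygote replicate 2 or XX WT replicate 2 (adjusted p 0.0512 to 0.0667). Of 5 adrenal cortex genes 4 were tested between the sexes, 1 higher and 1 lower in XY, where 58.7% of all tested genes were called. Akr1b7, an aldose reductase of the adrenal cortex, had a log2 fold change of 1.15 ± 0.20 (adjusted p 4.65e-06). Nr0b1 encodes the nuclear receptor Dax1, which gonad and adrenal share, and had -0.71 ± 0.08 (adjusted p 8.64e-10). Cyp11b2, the aldosterone synthase of the adult cortex, was listed at 0 in every group, with 0 counts in total.

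The last 2 members are enzymes of corticosteroid synthesis. Cyp21a1 encodes 21-hydroxylase and Cyp11b1 encodes 11-beta-hydroxylase, which carries out the last step to corticosterone. Both were rare. Cyp21a1 summed to 316 estimated counts over 46 libraries, was at 0 counts in 19 and reached 3 counts in 13. Cyp11b1 summed to 47 counts, was at 0 in 32 and reached 3 counts in 5. Cyp11b1 did not pass the filter in any comparison. Cyp21a1 has a near-identical pseudogene copy, Cyp21a2-ps, so the assignment of its reads is uncertain.

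Cyp21a1 was high in 5 libraries. XX 1bp-ins homozygote replicate 5 had 107 counts (2.04 TPM) beside 0, 0, 1 and 1 in the rest of its group. XY 3bp-del homozygote replicate 1 had 85 counts (1.94 TPM) beside 2, 1, 0 and 1. XY 3bp-del heterozygote replicate 1 had 26.71 counts, XX WT replicate 1 had 22 and XX 3bp-12bp-del homozygote replicate 1 had 16. In each of these 5 groups the others stayed at 2 counts or fewer.

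These 5 libraries were sorted into 2 sets by what else they held, after their values were seen. XY 3bp-del heterozygote replicate 1 and XX WT replicate 1 were the 2 libraries richest in Dbh, with 976 and 3117 counts, and they also had Cyp11b1 at 10 and 9 counts. The other 3 had 1, 2 and 28 Dbh counts and Cyp11b1 at 1, 0 and 0. They were the 3 libraries richest in 10 genes of liver and yolk sac. That list was chosen after their values were seen, so this rank is a description only. The sums were 416.37 TPM in XX 1bp-ins homozygote replicate 5, 4288 TPM in XY 3bp-del homozygote replicate 1 and 1652.98 TPM in XX 3bp-12bp-del homozygote replicate 1, against 37.22 TPM or less in the other 43. Afp, the fetal serum protein alpha-fetoprotein, reached 1816.57 TPM among them. The library with the most Cyp21a1 of these 3, XX 1bp-ins homozygote replicate 5, thus had the lowest of their liver and yolk sac sums. Summed steroidogenic genes in XX 1bp-ins homozygote replicate 5 were also the highest of all (701.49 TPM), as was Mrap (3.03 TPM), and Akr1b7 stood at 6.69 TPM. The testis gene Amh stood at 809.12 TPM in that library, the highest of the XX homozygotes, whose median was 65.23 TPM. In XY 3bp-del homozygote replicate 1 and XX 3bp-12bp-del homozygote replicate 1, Mrap stood at 1.61 and 1.53 TPM and Akr1b7 at 4.4 and 6.2 TPM. The median of Mrap over all libraries was 1.33 TPM and that of Akr1b7 2.455 TPM. The part of carried-over tissue in these counts was not tested. XX 1bp-ins homozygotes 1, 3 and 4, rich in catecholamine genes, had 0, 1 and 1 counts of Cyp21a1 and 0 of Cyp11b1.

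Cyp11b1 reached 5 counts in 4 libraries. These were XX 3bp-del homozygote replicate 4 (11 counts, with 6 of Cyp21a1 and the second-highest mesonephros sum), XY 3bp-del heterozygote replicate 1 (10), XX WT replicate 1 (9) and XY 3bp-12bp-del homozygote replicate 3 (5, with 0 counts of Dbh). At this depth no level could be given for the other groups. Across libraries Cyp21a1 and Cyp11b1 deviated from their group means together with r = 0.48 and rho = 0.47 (permutation p 0.00285 and 0.00295, adjusted 0.00887 for r), in sparse counts. Cyp11b1 also correlated with Th (r = 0.533, adjusted p 0.023), Phox2a (0.535, 0.0235), Chga (0.543, 0.0216) and Hand2 (0.601, 0.0235), all by permutation. By rho the values were lower, 0.403 (adjusted permutation p 0.0422), 0.35 (0.0699, not called), 0.385 (0.0425) and 0.434 (0.0422). Cyp11b1 was at 0 counts in 32 libraries. Without the 2 libraries farthest from the median the r with these 4 genes were 0.331, 0.405, 0.343 and 0.412. Cyp21a1 was tested over all groups, with -0.37 ± 0.85 between the sexes (XY over XX, edgeR adjusted p 0.732) and 0.68 ± 1.15 in XX homozygotes (adjusted p 0.656). The first turned to 0.48 and the second to -1.02 without XX 1bp-ins homozygote replicate 5, and to 0.18 and -0.42 without XX 3bp-12bp-del homozygote replicate 1. Without XX WT replicate 1 the first was 0.09. In these 2 comparisons no difference in Cyp21a1 was detectable at this depth, and Cyp11b1 was not tested.

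**Figure D5:**
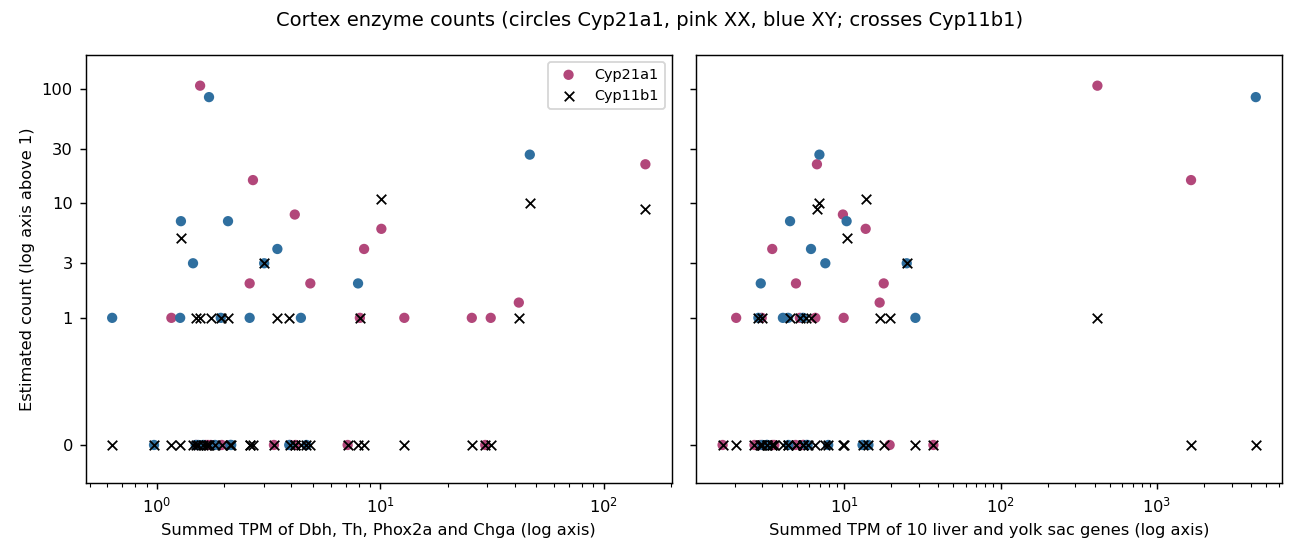
Estimated counts of Cyp21a1 (circles, XX pink and XY blue) and Cyp11b1 (crosses) in each library, against the summed TPM of Dbh, Th, Phox2a and Chga (left) and of 10 liver and yolk sac genes (right). The liver and yolk sac list was chosen after the values were seen. The 2 libraries with most Cyp21a1 (107 and 85 counts) are low on the left axis and high on the right one, and the 2 richest on the left axis hold both enzymes.

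Genes with the most similar pattern were named by Pearson's r of log2 CPM over the 46 libraries, as a description. Dbh was closest to Chgb (r = 0.956, 0.957 within groups), Kcnk9 (0.949), Insm2 (0.911), Dgkk (0.907) and Th (0.903). Th and Chga had Kcnk9, Chgb and Dgkk among their 5 as well, and Phox2a had Chga (0.923), Insm2 (0.918), Kcnk9 (0.901), Tlx2 (0.888) and Dbh (0.887). The 4 members thus named each other or the same few genes, which share the libraries rich in them. Hand2 was closest to Hand2os1 (0.705, 0.816 within groups), then Bmp4 (0.665), a secreted growth factor, Wscd1 (0.664), Mtcl3 (0.647) and Gramd2b (0.645). Mc2r was closest to Gpc3 (0.885), Npffr1 (0.87), Hapln3 (0.869), Olfml3 (0.869) and the Y-linked Eif2s3y (0.863). Within groups those values fell to 0.541, 0.394, 0.468, 0.457 and 0.121, so that most of the likeness followed sex. Cyp21a1 was closest to Rbp2 (0.765), Tmt1b (0.721), F2 (0.719), Serpina10 (0.691) and Cyp2c68 (0.68), where F2 and Serpina10 encode coagulation proteins made by the liver, and its rho with them was only 0.241 to 0.526.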

How the data were processed

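Poly(A) RNA of whole E12.5 gonad pairs was sequenced in 46 libraries, made from 140 ng of total RNA each, per the labels' protocols. Per the submitters' processing notes the build was mm10. What was used for alignment, quantification, annotation and strand was not given in those notes or the labels. The deposited estimated counts were not normalized as far as the values show, 8 to 8.9% per library were not whole, and all were rounded for modelling. The deposited TPM were scaled by gene length by the authors and summed to 923510 to 945851. A further column of each deposited file, of no labelled sample, was not used (1 per file).

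The model was edgeR's quasi-likelihood fit (edgeR 4.0.16, R 4.3.3) with TMM and filterByExpr, within the 2 groups of each pair, or over 12 groups for averages (17033 genes). Calls have a Benjamini-Hochberg adjusted p under 0.05 over all tested genes; SE is |log2 fold change|/√F. Log2 CPM has a prior count of 2. The members and lists were chosen with earlier results of these data known. Named list genes are up to 3 called ones with the largest change and up to 2 uncalled; likeness names the 5 highest r without predicted genes. Alternatives were RLE, no filter, DESeq2 1.42.0, limma 3.58.1 on log2(TPM + 0.5), 1 fit over all groups, replicate blocks, and leaving out each library. Fits were tested on simulated data. Among 71 within-group pairs of libraries none agreed within sampling noise.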

Additional observations from a re-analysis of the deposited data

Results flagged for a closer look

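In the groups of 5 libraries, 13 of 40 gene and group sets had a highest library whose distance to the next exceeded 0.71 of the whole range. Chance flags about 1 in 20 groups of normally distributed values, a rate that is no measure for groups near 0, where a single count is enough. Of these 3 concern the enzymes in libraries described above: Cyp21a1 in XX 1bp-ins homozygote replicate 5 (2.04 TPM, next 0.02) and in XY 3bp-del homozygote replicate 1 (1.94 TPM, next 0.12), and Cyp11b1 in XX 3bp-del homozygote replicate 4 (0.12 TPM, next 0). Hand2 in that last library was at 15.45 TPM, next 8.38. Catecholamine genes stood out at lower levels in 3 libraries outside the 8 richest: XX 3bp-12bp-del homozygote replicate 4 (Chga 3.59 TPM, Phox2a 1.83 TPM), XY 3bp-del homozygote replicate 2 (Dbh 2.2 TPM, Th 1.51 TPM) and XY 1bp-ins homozygote replicate 5 (Dbh 0.71 TPM, with Cyp21a1 at 0.07 TPM or 4 counts). The remaining 3 are single counts of Cyp11b1 (0.01 TPM) in XX 1bp-ins homozygote replicate 5, XY 1bp-ins homozygote replicate 5 and XY 3bp-del homozygote replicate 4.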

How the results depend on the processing

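RLE normalization and no expression filter changed no member count in the 20 comparisons. DESeq2 called 3 members (against 1) between the sexes in 1bp-ins heterozygotes, 5 in 1bp-ins homozygotes and 2 in 3bp-12bp-del homozygotes. One fit over all 12 groups called 5 in WT (Dbh and Th among them, adjusted p 0.0485 and 0.00931), 2 in 1bp-ins heterozygotes and 3 in 1bp-ins homozygotes between the sexes (each against 1, beside 29.6%, 33.8% and 14.4% of all genes), and 4 in XX 3bp-12bp-del and 2 in XX 3bp-del homozygotes against XX WT (each against 0, beside 21.1% and 39.5%). Leaving out 1 library gave 0 to 3 calls between the sexes in 1bp-ins heterozygotes, 0 to 5 in 1bp-ins homozygotes, 1 to 2 in 3bp-del homozygotes and 0 to 1 in the other 3 genotypes. Calls over all genes then ran from 4919 to 6106, from 785 to 2986 and from 3974 to 5271 in the first 3 of these. Leaving out 1 library gave 0 to 1 member calls for XX 1bp-ins homozygotes and 0 to 2 for XX 3bp-del homozygotes against XX WT, and 0 to 1 for XX homozygotes and for the interaction. Same-numbered libraries did not pair, as in 0 of 16 comparisons did every pair correlate above 0.1 (-0.299 to 0.39). With the replicate number as a block, edgeR called 2 members between the sexes in 1bp-ins heterozygotes and 0 in WT, beside 37.8% and 6.92% of all genes. In WT Mc2r then had an adjusted p of 0.0684. The block also ended the call of Slc18a1 (-0.51, adjusted p 0.0758) and turned Cyp21a1 in XX homozygotes to -0.38. It turned Hand2 to 0.15 (XX 1bp-ins homozygotes against WT) and 0.31 (between WT sexes). Without the 8 libraries Hand2 turned to 0.57, 0.71 and 0.69 in XX 1bp-ins, 3bp-12bp-del and 3bp-del homozygotes against XX WT and to 0.58 between WT sexes, and Mc2r between 1bp-ins homozygotes lost its call (0.77, adjusted p 0.192). Hand2 between WT sexes was 0.0051 in the fit over all groups and 0.14 with limma, and Cyp21a1 between the sexes 0.024 with limma. Slc18a2 lost its call with limma (-0.47, adjusted p 0.115). The cause of these changes was not tested.

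Signs turned on leaving out 1 library in results that were not called. In XX homozygotes the ranges were -1.55 to 0.45 for Dbh, -1.52 to 0.32 for Th, -0.78 to 0.79 for Phox2a, -1.13 to 0.32 for Chga and -1.02 to 1.60 for Cyp21a1. Between the sexes they were -1.07 to 0.48 for Cyp21a1 and -0.0053 to 0.31 for Hand2, and between WT sexes -5.68 to 0.65 for Dbh and -0.65 to 1.19 for Hand2, while Th kept its sign (-6.93 to -1.41). Against XX WT Hand2 ran from -0.66 to 0.92 (1bp-ins homozygotes), -0.69 to 0.89 (3bp-del) and -0.88 to 0.71 (3bp-12bp-del). In XY homozygotes the ranges were -0.014 to 0.31 for Hand2 and -0.090 to 0.060 for Mc2r. Counts of all called genes moved with the fit too: between WT sexes from 1738 to 639 or 6937 without 1 library, 2818 with DESeq2, 1088 with the block and 5044 over all groups; between 1bp-ins homozygotes from 1544 to 785 or 2986, 2428 with DESeq2 and 2455 over all groups; between 3bp-12bp-del homozygotes from 1641 to 468, 2514 with DESeq2 and 1035 with the block; in XY homozygotes from 1085 to 588 or 1934 and 354 with limma; and against XX WT from 1721 to 166 without 1 library, 507 with the block, 723 over all groups and 2694 with DESeq2 in 3bp-del heterozygotes, from 4088 to 2276 and 1217 with the block in 3bp-12bp-del homozygotes, and from 5186 to 3026 in 1bp-ins homozygotes. Depth limits Cyp21a1 and Cyp11b1, at a median of 1 and 0 counts.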
